A study of Mus musculus with 2 samples.

Results

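The aldehyde dehydrogenases (ALDHs) examined here are the 10 ALDH genes Aldh2, Aldh1b1, Aldh3a1, Aldh3a2, Aldh3b1, Aldh4a1, Aldh5a1, Aldh7a1, Aldh9a1 and Aldh18a1, whose main known substrates lie outside retinoic acid synthesis. They were taken by gene symbol, and all 10 were found among the 31252 gene rows of the count table. All 10 averaged 10 counts or more over the 2 libraries and so entered the comparison, as did 15246 gene rows in all.

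ALDHs use NAD or NADP to oxidize aldehydes to acids. In dopaminergic neurons, monoamine oxidase turns dopamine into the reactive aldehyde dihydroxyphenylacetaldehyde (DOPAL), which ALDHs clear to dihydroxyphenylacetic acid (DOPAC). Other members of the family finish the breakdown of the transmitter GABA, handle the semialdehydes of proline and lysine metabolism, or remove fatty aldehydes that arise from membrane lipids and lipid peroxidation.

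RNA from the ventral midbrain of mice aged 2 months was sequenced in 2 libraries, 1 labelled Ctrl (Slc6a3-Cre) and 1 labelled OE (Slc6a3-Cre; CAG-S-COUP-TFII). Both genotypes carry Cre driven by Slc6a3, the dopamine transporter gene, and in OE mice Cre switches on COUP-TFII, an orphan nuclear receptor, in dopaminergic neurons only, a small part of the tissue. The strain is given as incipient congenic C57BL/6. The study's crosses also carried a Tfam flox allele and a tdTomato reporter, which the labels of these libraries do not mention, and neither source says whether tissue was pooled. The question put to this comparison was whether COUP-TFII alters ALDH transcripts. With 1 library per group, no difference below has a replicate check and no p-value was computed. Each interval is an exact 95% interval for counting error alone and describes these libraries rather than the genotypes.

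The expected counts totalled 16984336 in the Ctrl-labelled and 21326632 in the OE-labelled library. Nr2f2, which encodes COUP-TFII, goes against the labels. It had 637 counts in the Ctrl-labelled and 377 in the OE-labelled library, a log2 fold change of -1.07 (interval -1.26 to -0.88). The count covers all cells of the tissue, so the level in dopaminergic neurons alone cannot be read from it. All directions below follow the labels, OE-labelled over Ctrl-labelled, and would turn around if the labels were exchanged. The labels also name the cell type as dopaminergic neurons, but glial markers were abundant in both libraries, with summed normalized counts of 401749 and 335755 for 12 oligodendrocyte markers in the Ctrl- and OE-labelled libraries, so the material also holds other cells of the tissue. In such bulk RNA, fewer cells of a type and less RNA per cell cannot be told apart.

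Markers of several cell types and regions moved between the libraries. For comparison, 17.9% of all genes tested were higher in the OE-labelled library by more than log2 0.2, and 16.6% were lower. All 15 dopaminergic neuron markers were higher in the OE-labelled library by more than log2 0.2, and their summed normalized counts were 22212 in the Ctrl-labelled and 56933 in the OE-labelled library. Of 10 thalamus markers, 9 were lower by more than log2 0.2, from a sum of 18568 to 11591, and Gbx2 was at 0 in the OE-labelled library. Of 12 oligodendrocyte markers, 9 were lower by as much. Of 12 astrocyte markers, 1 was, and their sums were 134203 and 129265. Of 12 endothelial and mural markers 7 were lower by as much, and of 12 microglia markers 5. Of 6 choroid plexus and ependyma markers with enough counts, 3 were lower by as much and 1 was higher, and Ttr had 426 counts in the Ctrl-labelled and 67 in the OE-labelled library. Of 10 pan-neuronal markers, 5 were higher and 1 lower by as much, with sums of 132166 and 149320, and of 7 GABAergic neuron markers 2 were higher and 1 lower. The part of these shifts in the ALDH values was not tested.

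Counts of ALDH genes past the threshold were close to what all genes showed. Of the 10, 1 was higher in the OE-labelled library by more than log2 0.2, the threshold used in the study, against 17.9% of all genes tested. Lower by as much were 2, against 16.6% of all genes, and the other 7 lay within log2 0.2 of 0, as did 65.5% of all genes. The gene that was higher was Aldh3a1 and those that were lower were Aldh3b1 and Aldh4a1. All 3 also had counting intervals that left out 0, while the share of all genes past log2 0.2 with such an interval was 9.9% on the higher and 9.16% on the lower side. Without regard to size, intervals left out 0 for 7 of the 10, 4 on the higher and 3 on the lower side, against 30.2% of all genes tested. Intervals narrow with the count, and 7 of the 10 had more counts than the median gene tested. These were not the same 7, since Aldh3a1 and Aldh3b1 lay below that median. The part of the count in this difference from all genes was not tested. The 10 genes had a median log2 fold change of 0.063, beside 0.0046 for all genes tested. Their summed normalized counts were 9764 in the Ctrl-labelled and 10072 in the OE-labelled library, a log2 ratio of 0.045.

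**Figure D1:**
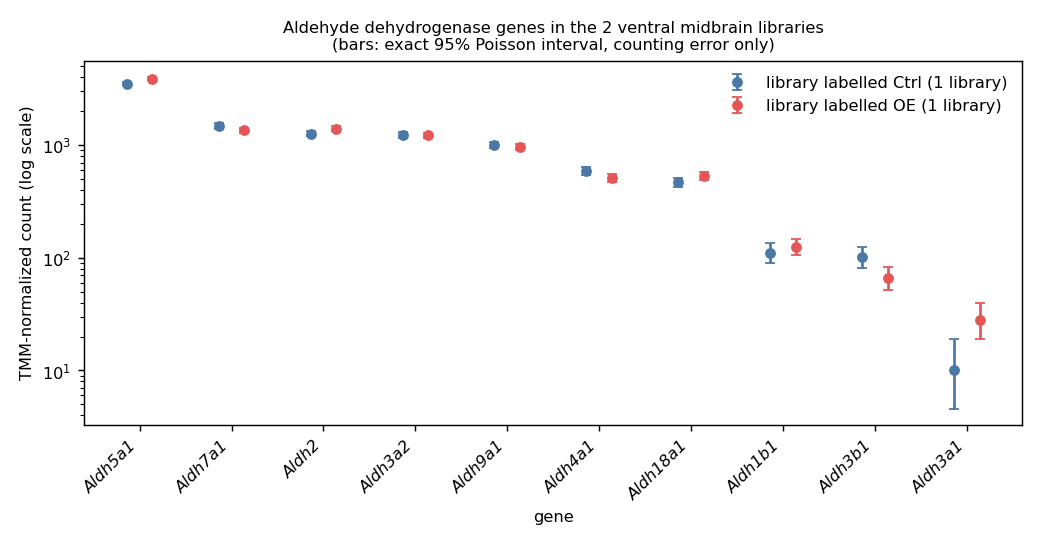
TMM-normalized counts of the 10 ALDH genes on a log axis, with 1 point for each library and an exact 95% Poisson interval for counting error. The points of most genes lie close together from Aldh5a1, the highest, to Aldh1b1, and the visible gaps are at Aldh3b1 (101 and 66.6 normalized counts in the Ctrl- and OE-labelled libraries) and Aldh3a1 (10.03 and 27.8).

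Aldh2 and Aldh1b1 encode the mitochondrial matrix enzymes best known for oxidizing acetaldehyde, and ALDH2 also takes DOPAL. Aldh2 lies on the minus strand at chr5:121566027-121593824 (GRCm38), and its longest annotated transcript has 13 exons. It had 1136 counts in the Ctrl-labelled and 1560.56 in the OE-labelled library, or 1266 and 1400 after TMM normalization. The normalized level was thus slightly higher in the OE-labelled library, with a log2 fold change of 0.14 (interval 0.034 to 0.26), which is past counting error but inside log2 0.2. Aldh1b1, at chr4:45799022-45804604 on the plus strand with 2 exons, was much less abundant, with 99 and 140 counts. Its log2 fold change of 0.19 was of the same size, but the interval from -0.19 to 0.57 was wide and no difference was detectable at this depth.

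Aldh5a1 encodes succinic semialdehyde dehydrogenase, which completes the breakdown of GABA in mitochondria. The gene lies on the minus strand at chr13:24907579-24937661 and has 10 exons. It was the most abundant of the 10 by count, with 3144 counts in the Ctrl-labelled and 4311 in the OE-labelled library. Normalized counts of 3504 and 3868 gave a log2 fold change of 0.14 with the narrowest interval of the group, 0.076 to 0.21. Aldh9a1, at chr1:167349991-167368532 on the plus strand, encodes a cytosolic enzyme for aminoaldehydes that makes GABA from aminobutyraldehyde and the precursor of carnitine. It had 899 and 1078 counts, and its log2 fold change of -0.051 (interval -0.18 to 0.078) did not clear counting error.

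Aldh4a1 and Aldh18a1 act on opposite arms of proline metabolism. ALDH4A1 oxidizes the semialdehyde made from proline to glutamate, while ALDH18A1 reduces glutamate to that semialdehyde on the way to proline and ornithine. Aldh4a1, at chr4:139622866-139649690 on the plus strand, had 531 counts in the Ctrl-labelled and 571 in the OE-labelled library. Its normalized counts went from 592 to 512, a log2 fold change of -0.21 (interval -0.38 to -0.035), just past the threshold. Aldh18a1, at chr19:40550257-40588463 on the minus strand, had 418 and 594 counts. Its normalized counts were 466 and 533, a log2 fold change of 0.19 (interval 0.011 to 0.38), just inside the threshold. The breakdown enzyme was therefore lower and the synthesis enzyme higher in the OE-labelled library, each by a margin close to its counting error. Of the 50-base stretches in annotated Aldh4a1 transcripts, 30.0% also occur in Gm21969, a gene model on the same strand that has no row of its own in the table under that symbol.

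Aldh7a1, on the minus strand of chromosome 18, encodes antiquitin, which oxidizes aminoadipic semialdehyde in lysine breakdown. It had 1329 and 1510 counts in the Ctrl- and OE-labelled libraries. Normalized counts of 1481 and 1355 gave a log2 fold change of -0.13 (interval -0.24 to -0.022), lower in the OE-labelled library and inside log2 0.2. Its exons overlap those of Phax on the opposite strand, and whether the counting used strand is not given in the sources used here. Exons of Aldh5a1 and Aldh2 also overlap those of genes on the opposite strand, so the same limit holds for them.

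Aldh3a1 and Aldh3a2 are neighbours on chromosome 11 that run in opposite directions. ALDH3A2 is the fatty aldehyde dehydrogenase of the endoplasmic reticulum, and ALDH3A1 is a cytosolic enzyme known best from the cornea. Aldh3a2, at chr11:61223417-61267464, had 1104 counts in the Ctrl-labelled and 1357 in the OE-labelled library. Its normalized counts were 1231 and 1217, and the log2 fold change of -0.016 (interval -0.13 to 0.10) was the closest to 0 of the 10. Aldh3a1, at chr11:61207537-61218421, had the fewest counts, 9 and 31. Its normalized counts of 10.03 and 27.8 gave the largest fold of the group, 2.69-fold or 1.43 on the log2 scale, but the interval ran from 0.37 to 2.73. Dopaminergic neuron markers, given above, were also higher in the OE-labelled library, and their part in this value was not tested.

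Aldh3b1 encodes an enzyme for medium- and long-chain aldehydes from lipid peroxidation and lies at chr19:3913491-3929808 on the minus strand, beside its paralogs Aldh3b3 and Aldh3b2. It had 90.77 expected counts in the Ctrl-labelled and 74.21 in the OE-labelled library. Normalized counts of 101 and 66.6 gave a log2 fold change of -0.60 (interval -1.07 to -0.15). The fractions show that RSEM, which shares reads between transcripts they match equally well, divided some reads. Aldh3b2 had 14.23 and 31.79 expected counts, so that the pair summed to whole numbers, 105 and 106. The share given to Aldh3b1 was 86.4% in the Ctrl-labelled and 70.0% in the OE-labelled library. For the pair as a unit, the log2 fold change was -0.30, with an interval from -0.70 to 0.10 that included 0. This pooling was chosen after the values were seen. Of the 50-base stretches in annotated Aldh3b1 transcripts, 8.97% also occur in another gene, 163 of them in Aldh3b3, which has no row under that symbol, and 122 in Aldh3b2. For the members other than Aldh3b1 and Aldh4a1, 0 such stretches were shared. Even so, the Aldh2 count in the OE-labelled library, 1560.56, was not whole, while both counts of Aldh4a1 were.

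RefSeq promoter windows (GRCm38.p6, 250 bases before to 50 after the start site) were matched for 7 of the 10 genes, all but Aldh2, Aldh3a1 and Aldh7a1. They were searched on both strands for AGGTCA, the half-site to which COUP-TF receptors bind as repeats. Of the 7, Aldh3b1 held it, with 1 match on each strand, and 16.0% of all genes with a window had at least 1 match in their first listed window. A match on both strands was found in 0.777% of these genes, and 2 or more matches on any strand in 1.74%. The letters around the Aldh3b1 matches are shown because it was the one gene of the 7 with matches. Both stretches are written on the gene's strand with the match in capitals, which reads as TGACCT where AGGTCA lies on the opposite strand.
Aldh3b1 chr19:3929925-3929954: gctgtgcgactcTGACCTgggtgcctttct
Aldh3b1 chr19:3929800-3929829: ggcctggagccaAGGTCAggcactaggcca
The first match ends 159 bases and the second 34 bases before the RefSeq start site. A match of letters describes the sequence and does not show that a receptor was bound.

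Levels were compared between genes as TPM, the count per base of the longest annotated transcript, scaled to the same sum in each library. In the Ctrl-labelled library, Aldh5a1 stood highest at 108 TPM. Aldh3a2, Aldh7a1, Aldh9a1 and Aldh2 followed with 69.0, 62.2, 61.3 and 56.8, and neighbours in that order had overlapping counting intervals. Aldh4a1 and Aldh18a1 formed a middle pair at 24.8 and 22.9. Aldh3b1 and Aldh1b1 were low, with 9.12 and 8.33, and Aldh3a1 was lowest with 1.01. The library labelled OE held the same 4 tiers, counting Aldh5a1 with Aldh3a2, Aldh7a1, Aldh9a1 and Aldh2 as the top tier. In that library Aldh5a1 had 116 TPM and Aldh3a1 2.72. Inside the tiers, Aldh18a1 stood above Aldh4a1 there (25.5 and 20.9), and Aldh1b1 above Aldh3b1 (9.23 and 5.84), both without overlap of their intervals. The order inside the tiers depended on the length used. With the mean length of the annotated transcripts, Aldh7a1 led the Ctrl-labelled library with 105 TPM and Aldh5a1 had 60.2, while Aldh2 led the OE-labelled library with 96.8. By that length, Aldh18a1 stood above Aldh4a1 in the Ctrl-labelled library too (30.6 and 21.2 TPM), and Aldh1b1 above Aldh3b1 (7.80 and 7.43). The order of these pairs thus differed between the libraries only with the longest transcript.

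**Figure D2:**
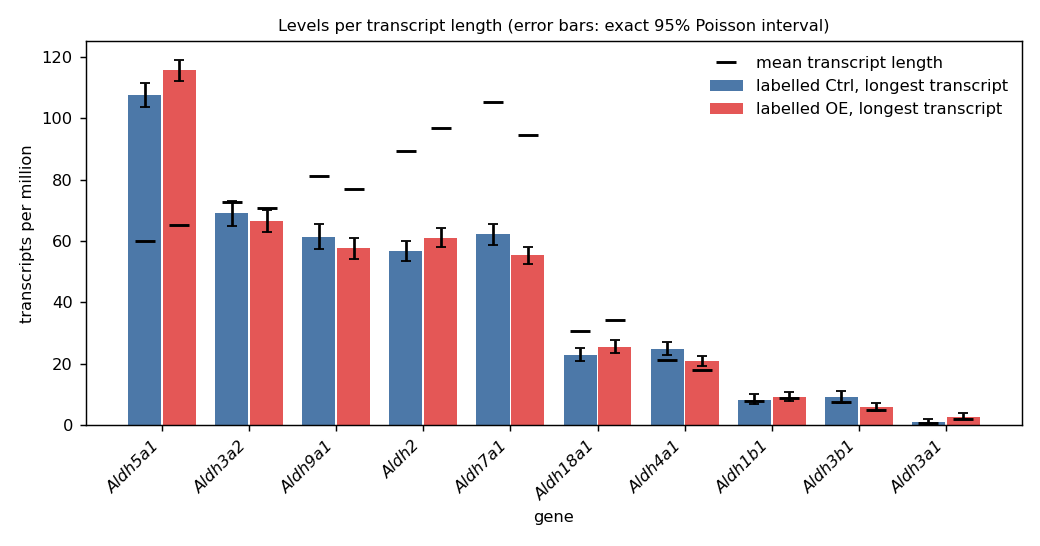
Transcript levels (TPM) of the 10 ALDH genes in each library, computed with the longest annotated transcript (bars, with exact 95% Poisson intervals) and with the mean transcript length (black dashes). Aldh5a1 stands highest with the longest transcript, at 108 and 116, while with the mean length it falls below Aldh7a1, Aldh2, Aldh9a1 and Aldh3a2 in both libraries.

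Summed over the 10 genes, the level was 423 TPM in the Ctrl-labelled library and 420 in the OE-labelled library. They made up 36.6% and 27.1% of the transcripts of the whole ALDH family. Most of the remainder came from Aldh1a1, a retinaldehyde dehydrogenase also known as a marker of a subset of dopaminergic neurons, at 545 and 945 TPM. The summed level of the 10 genes was thus nearly the same in both libraries, while their share of the family was lower in the OE-labelled library. Of 8 other ALDH genes with enough counts, 4 were past log2 0.2 on the higher side and 0 on the lower, beside 17.9% and 16.6% of all genes tested. Of these 4, 2 had an interval above 0, beside 9.9% of all genes. Aldh1a1 had a log2 fold change of 0.83 (interval 0.79 to 0.87) and Aldh1a7, which shares reads with it, 1.72 (interval 1.34 to 2.14). Aldh3b2 and Aldh16a1, with 0.83 and 0.31, had intervals that included 0. Aldh6a1, a mitochondrial enzyme of valine breakdown, had -0.13 (interval -0.22 to -0.035), and Aldh1l1, a folate enzyme of astrocytes, -0.096 (interval -0.20 to 0.0089).

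**Figure D3:**
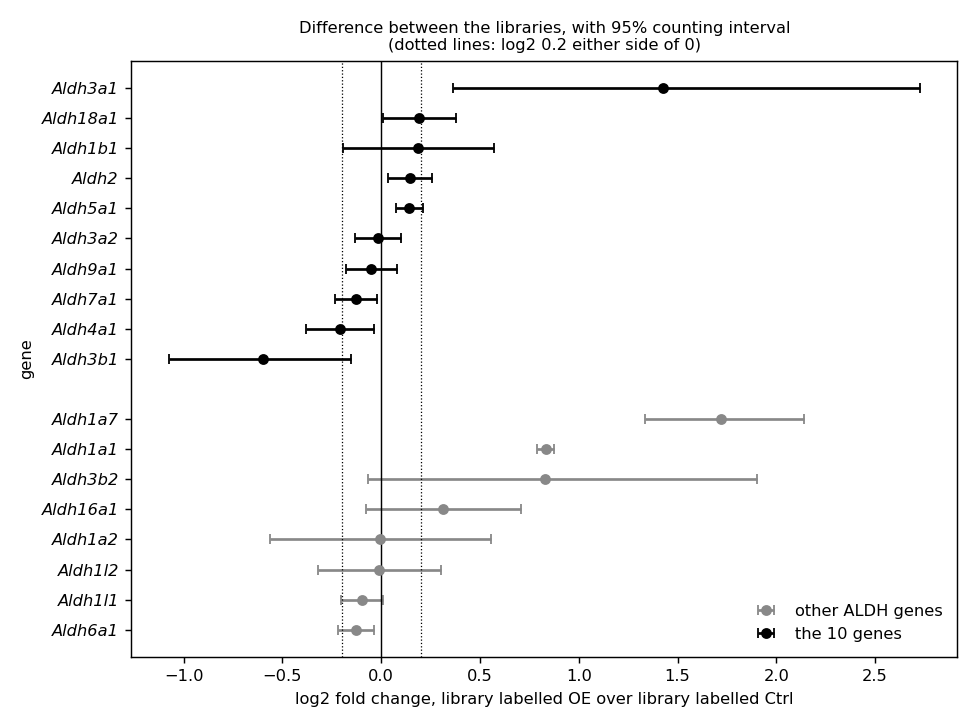
Log2 fold change of the 10 ALDH genes (black) and of 8 other ALDH genes (grey), labelled OE over labelled Ctrl, with exact 95% counting intervals and dotted lines at log2 0.2 either side of 0. Of the 10, only Aldh3a1 (1.43), Aldh4a1 (-0.21) and Aldh3b1 (-0.60) lie outside the dotted lines, while Aldh1a1 (0.83) and Aldh1a7 (1.72) lie further out than 9 of the 10 and all 10, respectively.

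**Figure D4:**
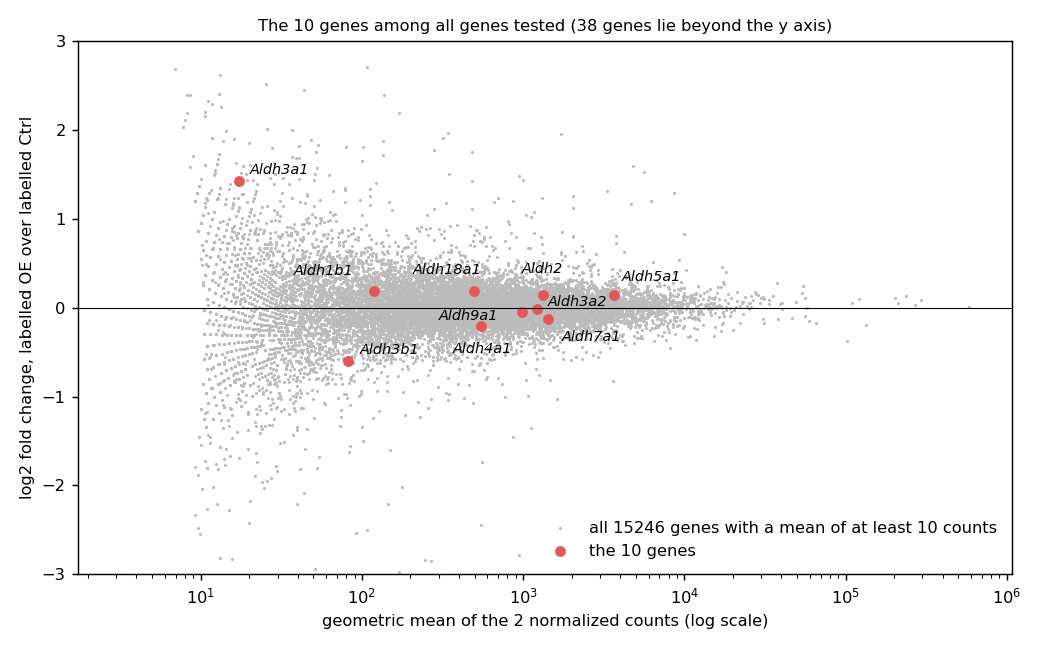
Log2 fold change against the geometric mean of the normalized counts for 15246 genes (grey) and the 10 ALDH genes (red), from 1 library per group. The ALDH genes with many counts sit in the dense band near 0, and Aldh3a1 and Aldh3b1 sit at low counts, where the spread of all genes is wide.

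Enzymes around the 10 genes were read from lists built by pathway, and their counts stand beside 17.9% of all genes past log2 0.2 on the higher and 16.6% on the lower side. In the handling of dopamine and other amines and their aldehydes, 4 of 12 genes were higher by more than log2 0.2, 2 of them with an interval above 0, and 0 were lower. Of the 12, 3 were higher by as much when total counts were used for scaling or the pseudocount was 5. Akr1b3, an aldose reductase, had 696 and 1052 counts in the Ctrl- and OE-labelled libraries and a log2 fold change of 0.28 (interval 0.14 to 0.42). Cbr1, a carbonyl reductase, had 0.26 (interval 0.12 to 0.40). The monoamine oxidases, which make DOPAL from dopamine, had log2 fold changes of 0.10 for Maoa (interval -0.0038 to 0.21) and 0.12 for Maob (interval -0.035 to 0.27). Neither was detectably different at this depth.

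Genes of the GABA shunt, in which ALDH5A1 acts, stayed near 0, with 1 of 11 higher by more than log2 0.2, 0 lower and a list median of 0.060. Abat, the GABA transaminase that supplies the substrate of ALDH5A1, had 12107 and 16033 counts and so a log2 fold change of 0.092 (interval 0.058 to 0.13). Gad1, which makes GABA, had -0.11 (interval -0.15 to -0.066). Suclg1, a subunit of succinyl-CoA ligase, was the gene past the threshold, with 0.22 (interval 0.13 to 0.32).

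Among 7 genes of proline and ornithine metabolism, 1 was higher and 1 lower by more than log2 0.2. Prodh, the mitochondrial proline dehydrogenase that acts just before ALDH4A1, had 355 and 530 counts and a log2 fold change of 0.26 (interval 0.068 to 0.46), the opposite sign to Aldh4a1. Slc6a7, a proline transporter of neurons, had -0.27 (interval -0.39 to -0.16). In lysine breakdown, the pathway of ALDH7A1, 4 of 7 genes were higher and 1 lower by more than log2 0.2, but 0 of these had an interval that left out 0, and counts were low. Aass, which starts the main route, had 97 and 144 counts and a log2 fold change of 0.26 (interval -0.12 to 0.64).

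For fatty aldehydes and sphingolipids, the pathway of ALDH3A2, 3 of 10 genes were lower by more than log2 0.2 and 1 was higher. Each of these had an interval that left out 0, beside 9.16% of all genes on the lower and 9.9% on the higher side. The higher gene was Sphk1, with 20.67 and 44.72 counts and a log2 fold change of 0.79 (interval 0.0090 to 1.61). Sgpl1, the lyase that releases a fatty aldehyde from sphingosine phosphate, had 776 and 768 counts and a log2 fold change of -0.33 (interval -0.47 to -0.18). Fa2h, a fatty acid hydroxylase of myelin, had -0.34 (interval -0.44 to -0.25) and Far2, which makes fatty alcohols, -0.32 (interval -0.48 to -0.15). Oligodendrocyte markers were lower in the same library, 9 of 12 by more than log2 0.2, and their part in these values was not tested. Aldh3a2 itself, given above, was close to 0. Among 8 genes of carnitine synthesis and polyamines, around ALDH9A1, 3 were higher and 2 lower by more than log2 0.2. Bbox1, the last enzyme of carnitine synthesis, had 0.36 (interval 0.049 to 0.67) and Tmlhe, the first, -0.33 (interval -0.70 to 0.028).

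**Figure D5:**
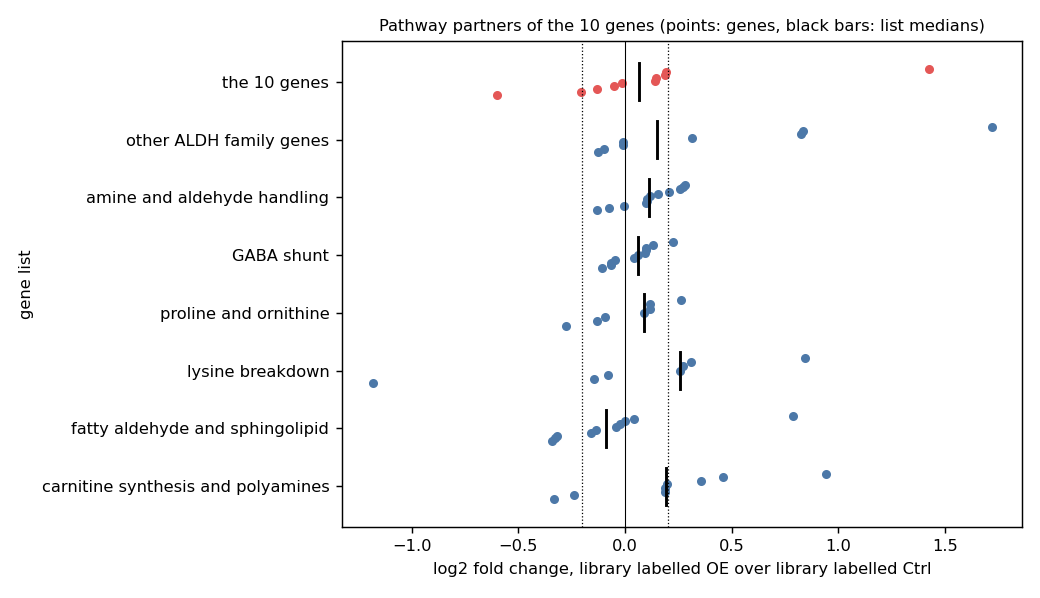
Log2 fold changes, labelled OE over labelled Ctrl, of single genes (points) with list medians (black bars) for the 10 ALDH genes and 7 lists of related genes, with dotted lines at log2 0.2 either side of 0. The median of the 10 genes is 0.063, that of the GABA shunt 0.060 and that of fatty aldehyde and sphingolipid genes -0.089.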

How the data were processed

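The authors sent snap-frozen ventral midbrain to a sequencing company, which made stranded mRNA libraries, sequenced paired reads of 50 bases and processed them in-house. Expected counts, estimated per gene by RSEM and not scaled between libraries, were deposited, and 95.4% of the values are whole. The submitters' processing notes name the build mm10. The aligner, the RSEM version and the annotation are not given in the sources used here.

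Each column was tied to its sample by the number in the sample title. Counts were scaled by TMM over the whole table (edgeR 4.0.16, R 4.3.3). Before taking log2 ratios, 0.5 normalized counts were added. Genes needed a mean of at least 10 counts. Clopper-Pearson intervals (95%) were put on the split of rounded counts (scipy 1.17.1). No test was possible across mice. The interval code was tested on simulated data. Alternatives were total counts, upper quartile, DESeq2 size factors (1.42.0), a pseudocount of 5, other minimums and thresholds, mean transcript lengths and pooling of Aldh3b1 with Aldh3b2.

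Coordinates, lengths and shared 50-base stretches came from GENCODE M21 (GRCm38). Lengths were matched by symbol for 86.7% of 19212 rows with a count. The genes named are the 10 members, Nr2f2, and genes from pathway and marker lists. Members and lists were chosen with earlier results of these data known. Figures were drawn with matplotlib 3.10.9.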

Additional observations from a re-analysis of the deposited data

How the results depend on the processing

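No paired analysis was possible because the design has 1 library in each group, and leaving out a library was not possible for the same reason. Scaling by total counts, the upper quartile or DESeq2 size factors left 1 of the 10 ALDH genes higher and 2 lower by more than log2 0.2, with medians from 0.048 to 0.062, and moved the median of all genes to between -0.011 and 0.0036. The pathway and family counts were recomputed under these scalings and a pseudocount of 5, but not under other minimums or thresholds. Of these counts, the amine and aldehyde list alone moved, from 4 to 3 higher, under total counts and under the pseudocount of 5. Aldh4a1 stayed between -0.22 and -0.21 and Aldh3a1 between 1.13 and 1.43, lowest with a pseudocount of 5. When 100 counts on average were required, 0 stood past log2 0.2 on the higher side and 1 on the lower, also with an interval that left out 0, since Aldh3a1 and Aldh3b1 have fewer counts. Of all genes with that many counts, 13.0% were higher and 11.7% lower by more than log2 0.2. Past log2 0.5, 1 of the 10 was higher and 1 lower, against 5.59% and 5.03% of all genes tested. Past log2 1, 1 was higher and 0 lower, against 1.53% and 1.28% of all genes tested. With Aldh3b1 and Aldh3b2 pooled, an alternative added after the values were seen, 1 rather than 2 lower genes had an interval that left out 0. Depth limits Aldh3a1, Aldh3b1 and Aldh1b1 most.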

Other observations

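Ratios between genes within a library do not depend on the scaling between libraries. The pairs here were chosen after their values were seen, and the exact 95% intervals cover counting error only. Aldh18a1, the proline synthesis enzyme, stood to Aldh4a1, the breakdown enzyme, at 0.787 counts per count in the Ctrl-labelled and 1.04 in the OE-labelled library, a log2 change in the ratio of 0.40 (interval 0.15 to 0.66). Aldh5a1 stood to Aldh7a1 at 2.37 and 2.85, a change of 0.27 (interval 0.14 to 0.40). Aldh5a1 stood to Abat, the enzyme before it in the GABA shunt, at 0.260 and 0.269, a change of 0.050 with an interval from -0.025 to 0.13. Aldh2 stood to Maoa, which makes the aldehyde from dopamine, at 0.901 and 0.928, a change of 0.042 (interval -0.11 to 0.20). Aldh2 stood to Aldh1a1 at 0.171 and 0.106, a change of -0.69 (interval -0.81 to -0.57).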
